A study of Mus musculus with 9 samples.

Results

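The regions described here are the windows around 3 imprint control regions whose methylation comes from the father: H19 at chr7:149766000-149769000 (3 kb), the intergenic region of the Dlk1-Meg3 domain, named Meg3 here, at chr12:110765000-110769000 (4 kb), and Rasgrf1 at chr9:89765000-89780000 (15 kb), all on mouse build mm9. Members were the CpG sites inside these coordinates and were not picked by their levels. The windows themselves were chosen with earlier results of these data known. Of 2200192 CpGs seen in any sample, 27 lay in the windows, 11 at H19, 11 at Meg3 and 5 at Rasgrf1. A CpG was kept where at least 6 of the 8 samples had at least 5 calls, a call being one read of that site as methylated or unmethylated. This left 8 CpGs, 3 at H19, 2 at Meg3 and 3 at Rasgrf1, or 29.6% of those seen, against 52.3% (1151670) over all CpGs.

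Imprinted genes are expressed mainly from the copy inherited from a given parent, and the choice is set by control regions that are methylated in either the sperm or the oocyte. The H19 region lies between Igf2, a fetal growth factor, and H19, a long noncoding RNA. There the insulator protein CTCF binds the unmethylated maternal copy and keeps enhancers from Igf2. The intergenic region of the Dlk1-Meg3 domain keeps the maternal noncoding RNAs, Meg3 among them, active when unmethylated, while its methylated paternal copy goes with expression of Dlk1, a Notch-like membrane protein. The Rasgrf1 region lies upstream of a gene for a Ras guanine nucleotide exchange factor, and a repeat beside it directs methylation in the male germ line. Such regions are known to keep their methylation in the embryo after fertilization while much of the genome loses it, and in a cell with both parental copies a level near the middle of the scale is the usual reading.

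The study used reduced representation bisulfite sequencing, in which DNA cut by MspI at CCGG is treated with bisulfite so that unmethylated cytosines are read as thymines. Donor cells (label TT) were fibroblasts grown from tail tips of adult male mice, and embryos (label NTZy14) were made by placing such nuclei into enucleated C57/B6 oocytes, activated with strontium in cytochalasin B. Each stage held 4 samples, 2 of strain label BDF1-CAST (numbers 1 and 2) and 2 of label X1 (numbers 3 and 4). No drug or gene deletion set the groups apart. The sources used here do not give the meaning of X1 or of the digits in NTZy14, nor how many animals, cultures or embryos a sample holds. The p-values below thus reflect only how these samples vary, and that variation may be technical. The 4 fibroblast samples held 35442175 to 80142240 calls with a median of 15 to 29 calls per CpG (sample 1, the deepest, joins 2 sequencing runs), and the 4 NT (nuclear transfer) embryo samples 25239364 to 30396273 calls with a median of 8 to 12. A level is the percent of calls that are methylated, over all chromosome copies that were read. Calls are not separated by parental copy, and whether the methylated copy is the paternal one was not tested. Intervals on a level are exact 95% binomial (Clopper-Pearson) and cover counting error only, as the reads carried no molecular identifiers. Where no call was methylated, the level said to be allowed is instead 3 calls of the total, a rough limit when calls are few.

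The windows were read unevenly in the strains, and this was the plainest pattern in them. All 8 CpGs of the H19 window beyond position 149767290, and all 8 of the Meg3 window beyond 110767078, had no call in any X1 sample of either stage. In the BDF1-CAST samples these stretches held 305 calls at H19 and 213 at Meg3. At Rasgrf1 all 5 CpGs were seen in X1 samples. Of 18 CpGs with at least 5 calls in both BDF1-CAST fibroblast samples, 7 (38.9%) were unseen in all X1 samples, 4 of 7 at H19 and 3 of 6 at Meg3, against 4.54% over all CpGs. In the other direction 0 of 10 CpGs were lost, against 0.125% over all CpGs. The summed window levels therefore rest on the first stretch of H19 and of Meg3 alone. The strains also differ in covered CpGs throughout, so strain and library cannot be told apart.

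**Figure D1:**
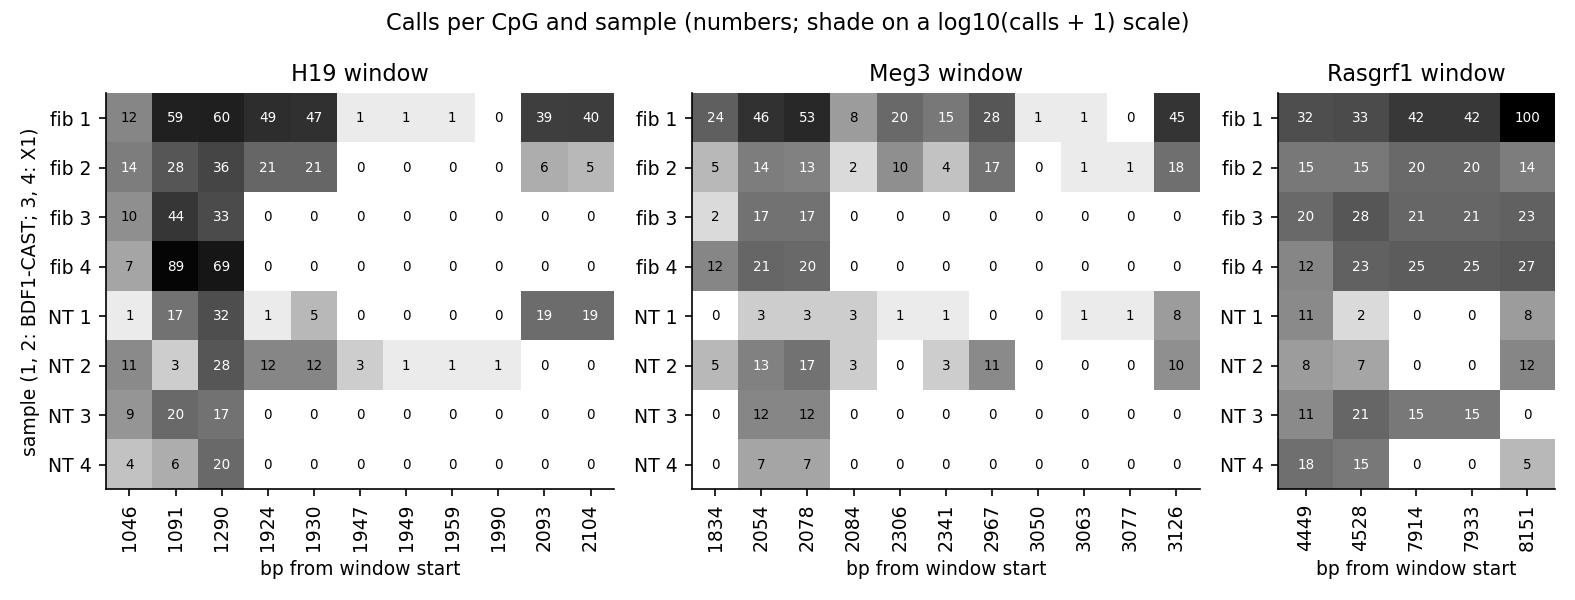
Number of calls at each CpG (columns, in bp from the start of the window, in order and not to scale) in each sample (rows, 4 fibroblast samples labelled fib and 4 NT embryo samples), with darker cells for more calls on a log10(calls + 1) scale. The right-hand CpGs of the H19 and Meg3 windows hold only zeros in samples 3 and 4 of both stages, and calls reach 100 at the last Rasgrf1 CpG in fibroblast sample 1.

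At H19 the 3 kept CpGs, at 149767046, 149767091 and 149767290 and each within 200 bp of the next, were near the middle of the scale in fibroblasts. Their summed level was 42.7%, 38.5%, 51.7% and 63.6% in fibroblast samples 1 to 4, from 78 to 165 calls each. In NT embryo samples 1 to 4 it was 6% (95% interval 1.25 to 16.5%), 31.0%, 32.6% and 50%, from 30 to 50 calls each. The ranges of the stages overlapped, with NT embryo sample 4 above fibroblast samples 1 and 2 and NT embryo sample 1 far below all others. This overlap was across strains. Within each strain both NT embryo samples lay below both fibroblast samples, with mean changes of -22.1 points in BDF1-CAST and -16.4 in X1. These rest on 2 samples of each strain and stage, and no test was made. Means of the 4 samples were 49.1% ± 11.1 (SD) for fibroblasts and 29.9% ± 18.1 (SD) for NT embryos, a difference of -19.3 points that did not pass the two-sided exact permutation test (p = 0.114), for which the smallest p of 4 against 4 is 0.0286. The NT embryo value was the lower in 4 of 4 comparisons of samples with the same number. The exact permutation p reached 0.0286 when all CpGs seen in the window were summed with no minimum of calls (-19.4 points), so this choice decides on which side of the threshold H19 falls. That sum takes in CpGs that only BDF1-CAST samples cover, so the strains are then measured on different CpGs. The p also reached 0.0286 when the difference was taken CpG by CpG, an alternative chosen after the data were seen (-23.5 points).

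The CpG at 149767290 was the only one in the windows to reach 10 calls in each of the 8 samples. Its level was 50%, 13.9%, 63.6% and 75.4% in fibroblast samples 1 to 4, and 0% of 32 calls, 42.9% of 28, 0% of 17 and 50% of 20 in NT embryo samples 1 to 4. The counts of 0 allow levels of up to 9.38 and 17.6%. So the NT embryos fell into a pair with no methylated call, one of each strain, and a pair near the fibroblast values. The neighbours did not follow that split sample by sample. At 149767091, 199 bp before it, NT embryo sample 3 stood at 65.0% of 20 calls and sample 1 at 17.6% of 17. At 149767046, NT embryo samples 2 and 3 stood at 9.09% of 11 calls and 22.2% of 9, and fibroblasts ranged from 20 to 75.0%.

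**Figure D2:**
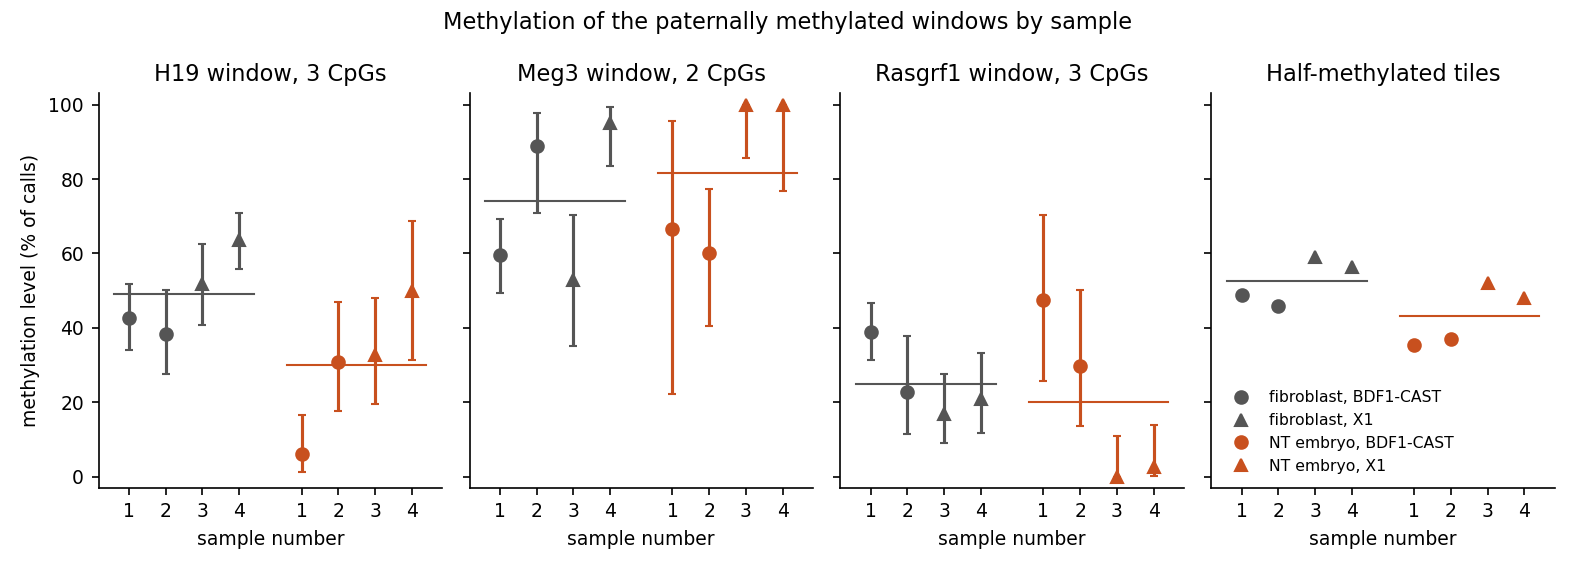
Percent of methylated calls (vertical axis) summed over the kept CpGs of each window by sample number (horizontal axis), with 95% binomial intervals and stage means as horizontal lines. The fourth panel gives the mean level of tiles chosen at 40 to 60% in the fibroblasts of the other strain. H19 means are 49.1 and 29.9%, Meg3 74.1 and 81.7% and Rasgrf1 24.8 and 20%, and the stages overlap in all 3 windows.

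The part of the H19 window that was read only in BDF1-CAST samples had a different level. Its 4 CpGs with at least 5 calls in both fibroblast samples (149767924, 149767930, 149768093 and 149768104) averaged 94.2% in these samples, while the other 3 covered CpGs of the window averaged 45.8%. At 149767924 the level was 93.9% of 49 calls and 95.2% of 21, and at 149768104 it was 97.5% of 40 and 100% of 5. These values lie above the middle of the scale in both fibroblast samples. NT embryo sample 1 was at 100% of 19 calls at 149768093 and at 149768104, and NT embryo sample 2 at 83.3% of 12 calls at 149767924. At 149767930, however, NT embryo sample 1 was at 0% of 5 calls and sample 2 at 75% of 12, and at 149767924 sample 1 had 0 of 1 call methylated. These 4 CpGs were singled out after their coverage was seen, and no test was made. Whether both parental copies were read at them was not tested either. Over all CpGs, those unseen in X1 averaged 51.9% in the same fibroblast samples and the other covered ones 40.2%.

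At Meg3 the 2 kept CpGs, at 110767054 and 110767078, lie 24 bp apart and may share reads, so they are close to a single reading. Their summed level was 59.6%, 88.9%, 52.9% and 95.1% in fibroblast samples 1 to 4, from 27 to 99 calls. NT embryo samples 1 to 4 stood at 66.7% of 6 calls, 60% of 30, 100% of 24 and 100% of 14. Every embryo sample thus had methylated calls, and the X1 embryos had no unmethylated call at all. Means of the 4 samples were 74.1% ± 21.0 (SD) for fibroblasts and 81.7% ± 21.3 (SD) for NT embryos, a difference of 7.53 points (exact permutation p = 0.514). In NT embryo sample 1 the interval ran from 22.3 to 95.7%, so that sample carries little weight. The interval counts its 6 calls as independent and would be wider if the 2 CpGs share reads.

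By strain, the Meg3 means were 74.2% in fibroblasts and 63.3% in NT embryos for BDF1-CAST, and 74.0% and 100% for X1, with 2 samples each and no test. Further along the window, 110767967 and 110768126 were read only in BDF1-CAST and were high in fibroblasts, at 82.1% of 28 calls and 94.1% of 17, and at 93.3% of 45 and 100% of 18. In NT embryos 110768126 was at 87.5% of 8 calls and 100% of 10, and 110767967 at 54.5% of 11 in sample 2. Between them and the kept CpGs, 110767306 was low in the same fibroblasts, at 20% of 20 calls and 10% of 10. So levels at CpGs of this window without X1 calls ran from near the bottom to the top of the scale within 1 kb in the same samples. Whether both parental copies were read at these CpGs was not tested.

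**Figure D3:**
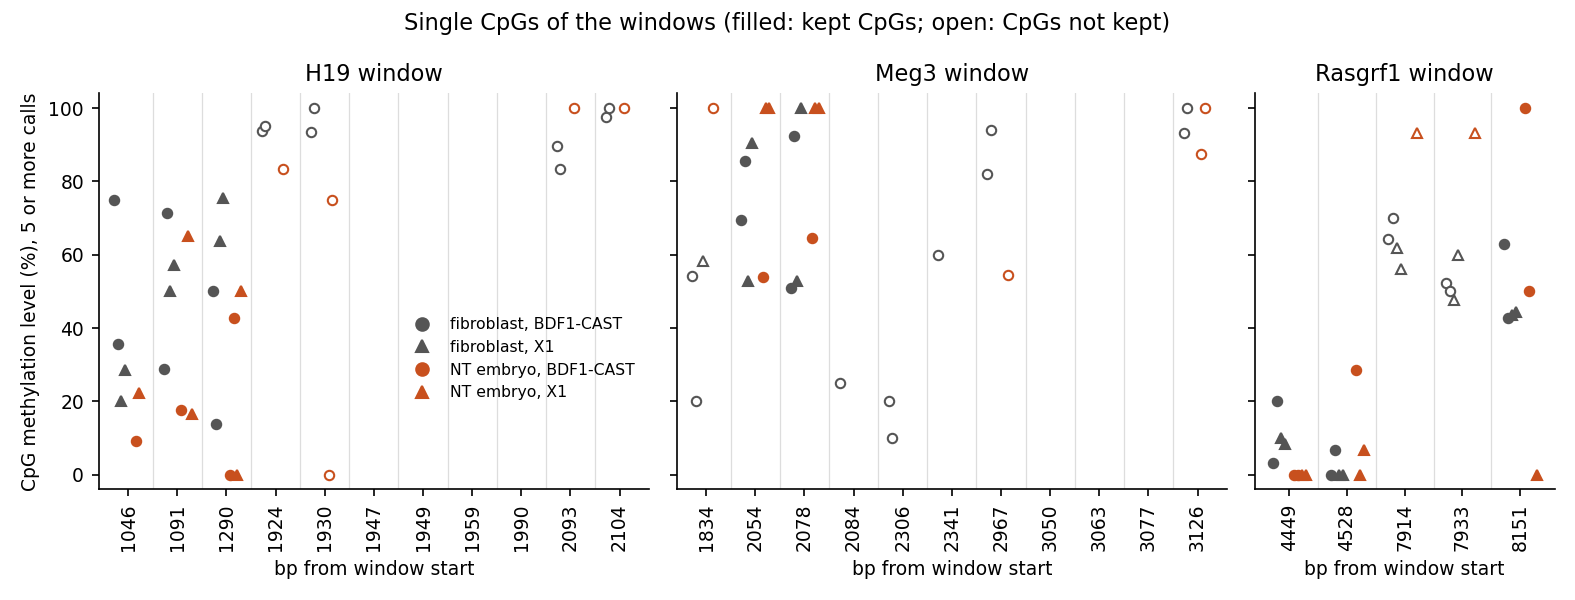
Methylation level (vertical axis, percent) of each CpG with at least 5 calls in a sample, against its position in bp from the start of the window (in order, not to scale); filled symbols are kept CpGs and open symbols CpGs that were not kept, circles BDF1-CAST and triangles X1. H19 CpGs read only in BDF1-CAST fibroblasts lie at 83.3% or above, and the first 2 Rasgrf1 CpGs lie at 20% or below in all fibroblast samples.

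At Rasgrf1 the kept CpGs fell into a low pair and an intermediate site more than 3 kb away. The low pair, 89769449 and 89769528, lay at 3.12 to 20% and 0 to 6.67% in fibroblasts. In NT embryos 89769449 had no methylated call in any sample, from 8 to 18 calls each, which allows levels of up to 16.7 to 37.5% (3 calls of the total). At 89769528, 79 bp on, NT embryo samples 1 to 4 had 2 of 2 calls methylated, 28.6% of 7, 0% of 21 and 6.67% of 15. The intermediate site, 89773151, was at 63.0% of 100 calls, 42.9% of 14, 43.5% of 23 and 44.4% of 27 in fibroblast samples 1 to 4. In NT embryos it was at 100% of 8 calls, 50% of 12, unseen, and 0% of 5. Fibroblast samples 2 to 4 thus lay close together below sample 1, and the embryos spanned the whole scale, from few calls.

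Just before it, 89772914 and 89772933, 19 bp apart, lay at 56.0 to 70% and 47.6 to 60% in the 4 fibroblast samples. Among NT embryos only sample 3 had calls there, 93.3% of 15 at both. These 3 neighbouring CpGs are the part of the Rasgrf1 window whose fibroblast levels lie near the middle of the scale. The summed window level mixes them with the low pair. It was 38.8%, 22.7%, 16.9% and 21.0% in fibroblast samples 1 to 4 and 47.6%, 29.6%, 0% of 32 calls (which allows up to 9.38%) and 2.63% in NT embryo samples 1 to 4. NT embryo sample 3 has no call at the intermediate site, so its 0% comes from the low pair alone. That site gave 5 of the 38 calls in NT embryo sample 4 and 100 of 165 in fibroblast sample 1. The summed level thus also depends on which CpGs were read. The means were 24.8% ± 9.61 (SD, n = 4) and 20% ± 22.8 (SD, n = 4), a difference of -4.88 points (exact permutation p = 0.714) whose sign changed with the coverage minimum: it was 2.46 points with CpGs of at least 10 calls in 6 samples. The intermediate site does not reach that minimum, so this value is of the low pair alone. At 89769449, the only Rasgrf1 CpG with 5 calls in every sample, the stages differed by -10.4 points (exact permutation p = 0.0286, the smallest possible). This rests on 1 CpG and few calls, and each sample's limit on a count of 0 covers most or all of the fibroblast levels. Its neighbour 89769528 went the other way, by 10.1 points over the 3 NT embryo samples with 5 calls.

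Levels at the ends of the scale were frequent in NT embryos. Counting a kept CpG in a sample with at least 5 calls as a level, 13 of 25 NT embryo levels were at exactly 0 or 100%, against 4 of 32 in fibroblasts. Median depth differed too, at 12 calls in NT embryos and 23 in fibroblasts. Among the kept CpGs of the windows that averaged 20 to 80% in fibroblasts, the share was 44.4% in NT embryos and 4.17% in fibroblasts. The same shares over all kept CpGs of that range outside the windows were 22.9 and 1.52%, from median depths of 14 and 26 calls. The part of depth in this was not tested. The SD between samples was larger in NT embryos at 5 of the 8 kept CpGs, or at 66.7% of those at 20 to 80%, against 71.5% of such CpGs outside the windows.

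Tiles of 100 bp were tested over the whole genome with a quasi-binomial model, in which methylated and unmethylated calls are fitted on stage and strain with the spread between samples estimated per tile. The call needed both a Benjamini-Hochberg adjusted p under 0.05 and stage means at least 20 points apart. Among the 279699 tiles that reached 10 calls in each of the 8 samples, 4.59% were called between the stages. Only 2 of them lay in the windows, both at H19, and 0 of 2 was called. This count depends strongly on single samples genome-wide: without fibroblast sample 1, 0 tiles were called anywhere, with 18.5% at an unadjusted p under 0.05. The H19 tile starting at 149767200 holds the CpG 149767290 and went from 50.7% ± 26.7 to 23.2% ± 27.0 (SD, n = 4; adjusted p = 0.275, quasi-binomial model), a difference of -27.5 points; 7.54% of all tested tiles had a difference this low or lower. The H19 tile starting at 149767000, with the CpGs 149767046 and 149767091, went from 48.9% ± 10.4 to 31.4% ± 22.8 (SD, n = 4; adjusted p = 0.382). The median difference over all tested tiles was -2.27 points. Those tiles start at all levels, and tiles low in fibroblasts cannot fall as far as the H19 tiles. Kept CpGs outside the windows at 40 to 60% in fibroblasts had a median difference of -9.19 points, against -1.04 over all kept CpGs there.

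Relaxed to 5 calls in every sample, 4 window tiles could be tested and 0 was called, against 5.69% of all tiles. In larger tiles of 1000 bp, 14.6% of all tiles were called and 1 of 3 in the windows. This was the H19 tile starting at 149767000, which joins 9 CpGs, at 59.5% ± 5.58 for fibroblasts and 33.1% ± 19.9 for NT embryos (SD, n = 4; adjusted p = 0.0459, quasi-binomial model). It sums CpGs that only BDF1-CAST samples cover with CpGs that all samples cover. The Meg3 tile of 1000 bp stood at 69.6% ± 19.1 and 72.9% ± 32.2 (SD, n = 4; adjusted p = 0.915). Between the strains 0 of the 2 H19 tiles of 100 bp was called, against 0.0179% of all tiles (50). At unadjusted p under 0.05 neither H19 tile passed for stage or strain, against 27.3 and 15.8% of all tiles, nor was either called with limma on arcsine-transformed levels, with adjusted p of 0.298 and 0.348 for stage.

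To set the windows against sequence that starts near the middle of the scale, tiles at 40 to 60% were chosen. They were chosen in the fibroblasts of the strain not being measured, which gave 13730 tiles for BDF1-CAST samples and 14698 for X1. These tiles averaged 52.5% ± 6.30 for fibroblasts and 43.1% ± 8.1 for NT embryos (SD, n = 4), a difference of -9.37 points (exact permutation p = 0.143). The windows averaged 49.1% at H19, 74.1% at Meg3 and 24.8% at Rasgrf1 in fibroblasts. Only H19 thus started near the level of these tiles, and the other windows are set against tiles of another starting level. Relative to these tiles the H19 window differed between stages by -9.88 points (p = 0.257, exact permutation), the Meg3 window by 16.9 points (exact permutation p = 0.257) and the Rasgrf1 window by 4.5 points (p = 0.857, exact permutation). None of these 3 differences passed the test, at 4 samples per stage. Single samples moved them: the H19 value was -4.22 points without NT embryo sample 1, the Meg3 value 8.55 points without fibroblast sample 3, and the Rasgrf1 value ranged from -7.02 to 14.5 points.

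The sequence within 25 kb on either side was measured in the same way, over 26 kept CpGs around H19, 30 around Meg3 and 34 around Rasgrf1. The Meg3 flanks fell by 18.8 points. They were at 63.2%, 59.1%, 61.8% and 62.7% in fibroblast samples 1 to 4 and at 32.7%, 39.8%, 44.3% and 54.7% in NT embryo samples 1 to 4. Every NT embryo sample lay below every fibroblast sample (exact permutation p = 0.0286, the smallest possible, and the only one of the 9 exact tests on windows, relative levels and flanks to reach it as first set). Of the 30 CpGs, 25 (83.3%) had a lower mean in NT embryos and 5 a higher one, against 59.6% lower over all kept CpGs and 66.6% over those at 20 to 80% in fibroblasts. Within 10 kb the difference was -8.45 points and did not pass (exact permutation p = 0.286). Without any single sample the p was 0.0571, the smallest that 3 against 4 allows.

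Over all samples the Meg3 window and its flanks thus had differences of opposite sign, 7.53 and -18.8 points. By strain this held only in X1, with mean changes of 25.97 points in the window and -12.8 in the flanks. In BDF1-CAST both fell, by -10.9 and -24.9 points, and no test was made by strain. The difference between window and flanks, an alternative chosen after the data were seen, was 26.4 points and did not pass (exact permutation p = 0.114). The window stood above its flanks by 12.4 ± 21.7 points in fibroblasts and by 38.8 ± 15.2 points in NT embryos (SD, n = 4). Around H19 the flanks were at 56.6% ± 2.55 and 45.1% ± 14.4 (SD, n = 4; exact permutation p = 0.229). Their NT embryo values split by strain, at 34.6 and 32.7% in BDF1-CAST and 63.5 and 49.7% in X1. Around Rasgrf1 the flanks were at 15.8% ± 3.24 and 11.7% ± 4.21 (SD, n = 4; exact permutation p = 0.171), and most of their CpGs lay in a stretch near 0%.

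**Figure D4:**
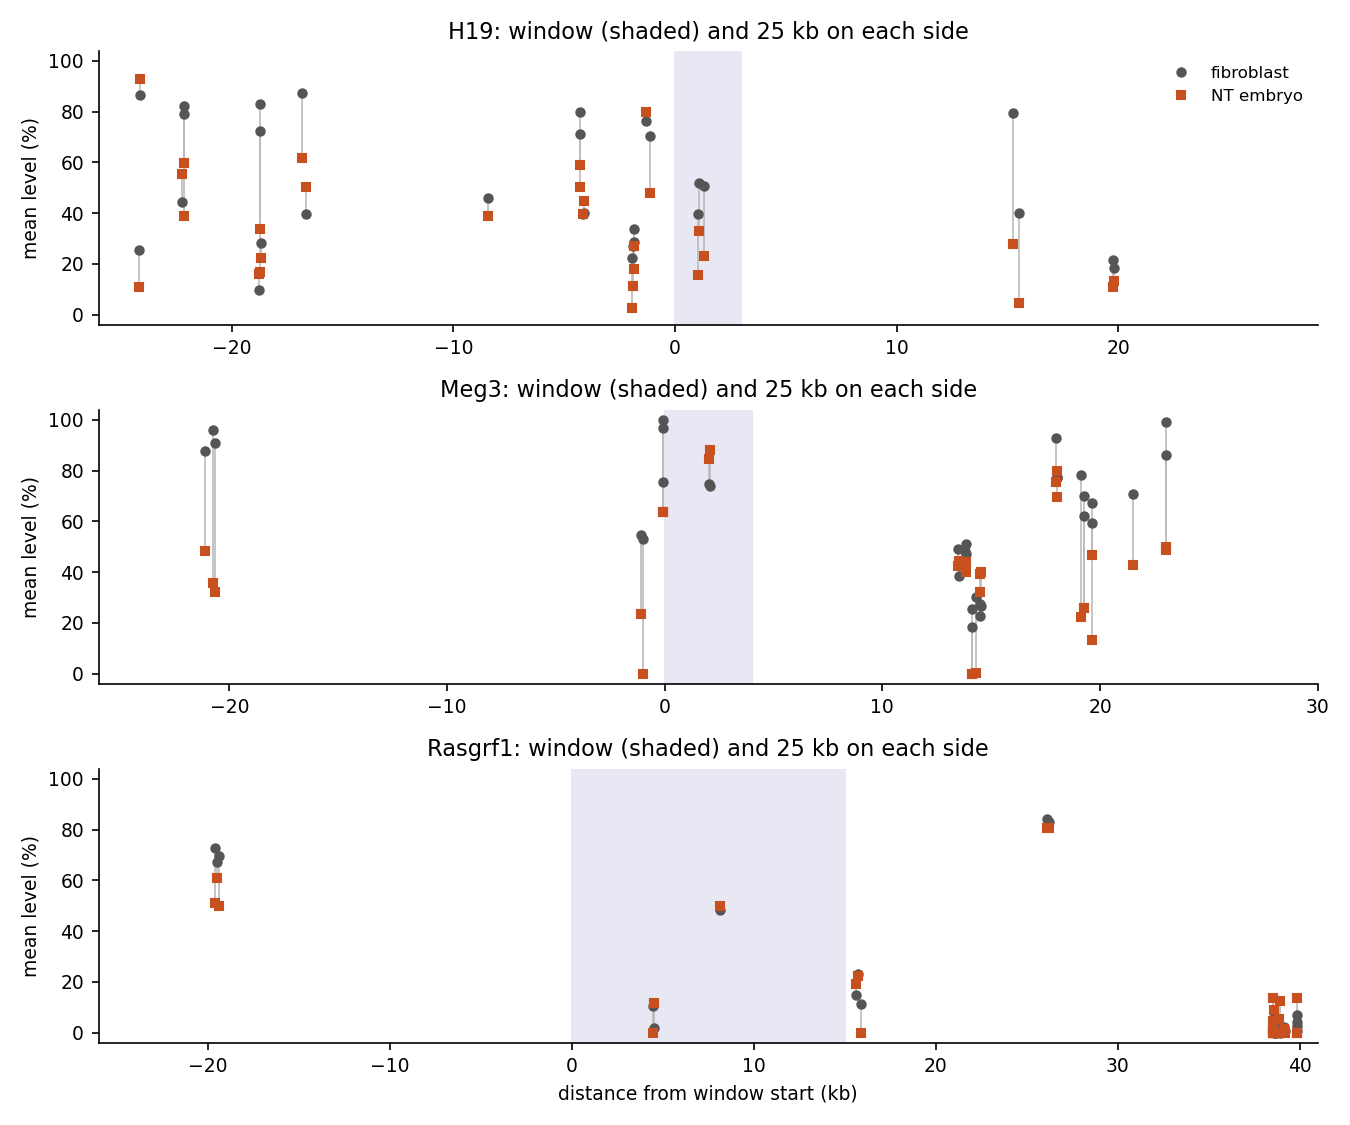
Mean methylation level (vertical axis, percent) of each kept CpG in fibroblasts (circles) and NT embryos (squares) against distance from the start of the window in kb, with the window shaded and samples of fewer than 5 calls left out. The Meg3 window CpGs lie higher in NT embryos and 25 of 30 flanking CpGs lower, and the Rasgrf1 CpGs about 24 kb past the window lie near 0% in both stages.

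The flank of the Meg3 window reaches the promoter of Meg3 itself, which acquires its paternal methylation later than the intergenic region, in the embryo. The RefSeq promoter of Meg3 (build GRCm38.p6, plus strand, 300 bases around the start) is shown because its spacing of CpGs places it on the positions of the files: all 13 of its CpGs coincide with CpGs seen there, from 110778955 to 110779254 on chromosome 12 of mm9, the only placement on that chromosome with at least 8 coinciding CpGs and no other seen CpG inside. Capitals mark the CpGs.
Meg3 promoter: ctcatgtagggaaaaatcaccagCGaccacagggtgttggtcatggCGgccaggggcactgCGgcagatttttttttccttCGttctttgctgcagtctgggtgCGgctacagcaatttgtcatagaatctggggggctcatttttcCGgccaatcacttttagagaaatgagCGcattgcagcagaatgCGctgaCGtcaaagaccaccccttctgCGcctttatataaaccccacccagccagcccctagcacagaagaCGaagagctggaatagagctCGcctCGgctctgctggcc

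The sequence holds 1 CCGG, the letters MspI cuts and the same on both strands, which are found in 52.8% of the 32851 promoters of that table. Only the sixth and the seventh CpG passed the rule on calls, the sixth being the one inside CCGG. Summed over this pair, the level was 53.9% of 89 calls, 8.33% of 48, 14.3% of 42 and 19.2% of 52 in fibroblast samples 1 to 4. In NT embryo samples 1 to 4 there was no methylated call among 20, 22, 14 and 4, which allows levels of up to 15.0, 13.6, 21.4 and 75.0%. The first kept CpG past the printed sequence, 110779279, was at 41.9%, 15.2%, 31.2% and 31.9% in fibroblasts and at 0% of 32 calls, 1.30% of 77, 0% of 26 and 0% of 7 in NT embryos. At these 3 CpGs no NT embryo sample exceeded 1.30%, while the intergenic window on the same chromosome stood at 60% or more in each of the 4. They were chosen after their values were seen and got no test of their own.

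The 5 kept CpGs from 110778483 to 110778853, upstream of the printed sequence, averaged 38.6 to 51.1% in fibroblasts and 40.1 to 44.6% in the 2 to 4 NT embryo samples that had 5 calls there, lower than in fibroblasts at 4 of the 5. Past the printed sequence, 110779506, 110779508 and 110779524 averaged 27.6, 22.7 and 26.9% in fibroblasts and 39.1, 32.1 and 40.2% in the 2 NT embryo samples with 5 calls, which ranged from 0 to 72.7%. On the other side, about 1 kb before the window, 110763921 was at 47.7 to 59.5% in fibroblasts. In NT embryos it was at 37.5% of 16 calls and 56.2% of 16 in the BDF1-CAST samples and at 0% of 18 and 0% of 8 in the X1 samples. At 110764000, 79 bp on, the X1 embryos again had no methylated call, from 13 and 12, with fibroblasts at 27.8 to 68.0%. Closer to the window, 55 to 78 bp before it, the kept CpGs 110764922, 110764927 and 110764945 averaged 75.4 to 100% in fibroblasts. There the X1 embryos stood at 94.4% of 18 calls and 100% of 3 at each of the 3 CpGs, and the BDF1-CAST embryos at 100% of 4 and 33.3% of 6. These 3 CpGs had the same counts in each NT embryo sample and may share reads. So the X1 embryos had nearly all calls methylated in and next to the window, from few calls. They had no methylated call at the 2 CpGs about 1 kb before it.

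Of the 9 genes of the domains looked up (H19, Igf2, Ins2, Dlk1, Meg3, Rtl1, Rian, Mirg and Rasgrf1), 6 had promoter sequences, and besides Meg3 only 1 promoter of Igf2 could be placed by its spacing. Its 8 kept CpGs were nearly unmethylated in every sample, between 0 and 1.53% in fibroblasts and between 0 and 2.40% in NT embryos, from 122 to 310 calls. The stages thus differed by less than the spread between samples, at 0.618% ± 0.659 and 1.08% ± 1.10 (SD, n = 4), and no test was made.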

How the data were processed

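DNA methylation was compared between 4 fibroblast and 4 NT embryo samples. Per the deposited description of the files, the authors gave 2 counts per CpG, calls in all and methylated calls, with no normalization; the build is mm9, per the submitters' processing notes. The sources used here do not state the aligner, the caller or how multiply matching reads were handled. The deposited tile table gives methylation as a fraction; it served as a check, and all 48 tile values of the windows in its 7 single-sample columns agreed within 0.001 with calls summed over CpGs of at least 5 calls. Its other 18 sample columns were not used. Libraries 1 and 1a of the fibroblasts are, per the same description, a sequencing and a resequencing, and were summed.

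The windows, gene lists and tests were chosen with earlier results of these data known. Calls were summed over kept CpGs per window and sample, and stages compared by the two-sided exact permutation test over 70 assignments. Tiles were fitted by a quasi-binomial logistic model with the dispersion moderated by squeezeVar of limma 3.58.1 in R 4.3.3, kept at 1 or above, and tested on simulated data. Named within windows were tiles and CpGs with at least 10 calls in every sample that were called or had the highest or lowest fibroblast mean or largest change, and clusters of CpGs within 200 bp. Other CpGs named, those of the flanks and promoters included, were chosen after their values were seen. Promoter levels had been planned only with an annotation of mm9; placing them by CpG spacing, with at least 8 coinciding CpGs and no other seen CpG inside, departs from that plan. Alternatives varied the call minimum, weighting, library 1a, reference class, flank length, tile size, model, replicate block and left-out samples. The share of intermediate CpGs was not computed, because only 1 window CpG had 10 calls in every sample. Python 3.11.15, numpy 2.4.6, pandas 2.3.3 and scipy 1.17.1 were used.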

Additional observations from a re-analysis of the deposited data

Results flagged for a closer look

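Among 42 groups of 4 samples examined, 4 had a highest or lowest sample set apart from the others by more than 0.829 of the group's range, a gap that chance gives in about 1 of 20 groups. The H19 window of fibroblast sample 4 stood 7.22 points above the tiles chosen at 40 to 60%, while the other 3 fibroblast samples lay between -7.41 and -5.97 points. The Meg3 flank after the window was at 53.4% in fibroblast sample 2, with the others at 60.4 to 61.5%. The Rasgrf1 CpG 89769528 was at 6.67% in fibroblast sample 2 and at 0% in the other 3. The Rasgrf1 CpG 89773151 was at 63.0% in fibroblast sample 1, the deepest, with the others at 42.9 to 44.4%.

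The strains moved in opposite directions in both samples of each in some measures. None of these differences between strains was tested. At Meg3 both BDF1-CAST embryos lay below the fibroblast mean of their strain (mean change -10.9 points) and both X1 embryos above theirs (25.97 points). At Rasgrf1 each BDF1-CAST embryo lay above the fibroblast sample of the same number (mean change 7.87 points). Each X1 embryo lay below the one of its number (-17.6 points). This did not hold against the fibroblast mean of the strain, since NT embryo sample 2 (29.6%) lay below that of BDF1-CAST (30.8%). At the intermediate CpG, NT embryo sample 3 lacks calls and sample 4 had 5 of its 38 window calls. Relative to the tiles chosen at 40 to 60%, the mean Rasgrf1 change was 18.8 points among BDF1-CAST embryos and -9.82 points among X1 embryos.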

How the results depend on the processing

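Depth is the main limit, since the kept CpGs of a window held 6 to 165 calls per sample. At H19 the difference was negative in every alternative, and with no coverage minimum (-19.4 points) or CpG by CpG (-23.5 points) it reached p = 0.0286 in the exact permutation test. Without a minimum, CpGs that only BDF1-CAST samples cover enter the sum. Leaving out each sample gave -25.96 to -11.3 points at H19. At Meg3 the window difference stayed positive, and leaving out each sample gave 0.464 to 14.8 points. At Rasgrf1 the difference was 2.46 points with CpGs of at least 10 calls, where only the low pair remains. It was 0.423 points CpG by CpG. With CpGs of 5 calls in every sample weighted equally, where a single CpG remains, it was -10.4 points. Leaving out each sample there gave -14.1 to 1.78 points, with 1.78 and 0.903 points without NT embryo samples 3 and 4. Relative to the tiles at 40 to 60%, leaving out each sample gave -14.5 to -4.22 points at H19 and 8.55 to 23.7 points at Meg3, while Rasgrf1 ranged from -7.02 to 14.5 points, with -7.02 and -0.596 points without NT embryo samples 1 and 2, and it was -0.732 points with its own flank as the reference. The Meg3 flank did not pass within 10 kb (-8.45 points), and leaving out each sample gave -22.8 to -15.5 points at an exact permutation p of 0.0571, the smallest that 3 against 4 can give. The causes were not tested, apart from the fewer CpGs or samples that an alternative itself leaves.

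Over all tiles, 12826 were called between stages as first fitted, 20068 at 5 calls, 5750 at 20 calls, 7076 with limma and 23755 at 1000 bp, where 1 window tile was called. Leaving out each sample gave 0 to 16399, and 0 without fibroblast sample 1, when 18.5% had an unadjusted p under 0.05. Between strains 50 tiles were called, 101 at 20 calls, 8 with limma, 32 without library 1a, 412 at 1000 bp and 0 to 12 without each sample. No window tile had 20 calls in every sample, and at Meg3 no CpG had 5, so those alternatives gave no value there; tiles of 10 calls weighted equally could be formed only at H19.

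With the replicate block, in which the signs of the differences between same-numbered samples are exchanged and p cannot go below 0.125, the window differences had p = 0.125 at H19, 0.625 at Meg3 and 0.5 at Rasgrf1 (exact permutation), relative to tiles at 40 to 60% 0.25, 0.375 and 0.625, and in the tile model the block left 0 tiles called, with 20.4% at an unadjusted p under 0.05. Over 105666 regions the deviations of same-numbered samples correlated at 0.115, 0.107, 0.172 and 0.0391, and only for number 3 was this above the correlation with the other number of its strain (0.0422). Whether samples of the same number share a donor is not given, and these correlations cannot decide it. The block was not used for the results.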
